A study of Mus musculus with 21 samples.

Results

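Semaphorins, ephrins, netrins and Slits, the secreted and membrane-bound cues that steer growing axons, and their receptors were followed in keratinocytes from 3 mouse models of basal cell carcinoma (BCC), a skin tumour driven by Hedgehog signalling. The 63 members, of 23713 genes in the deposited count table, were taken by name: protein-coding genes whose symbol begins with Sema, Plxn, Efna or Efnb, or with Epha, Ephb, Ntn or Robo and a digit, plus Nrp1, Nrp2, Slit1, Slit2, Slit3 and Unc5a to Unc5d. They comprise 34 ligands and 29 receptors. RNA was sequenced in bulk from the epidermis of the tail, with 3 control libraries from mice without tumours (Con) and 4 libraries from mice with tumours (BCC) in each model. In SmoM2, named for an activated form of Smoothened, the membrane protein that starts Hedgehog signalling inside the cell, cells were taken 29 days after induction of tumours. In Gnas-eKO, named for loss of the G protein subunit that raises cAMP, the time was 42 days, and in PKI, named for an inhibitor of protein kinase A, it was 57 days. The driver of the altered gene, the strain, the agent that induced tumours and the age of the mice are not given in the sources used here.

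Each model was its own batch, so BCC was compared with Con inside a model, and model, time and batch cannot be told apart. The 21 libraries held 16645858 to 22251132 estimated counts, and 3 counts corresponded to at most 0.186 CPM, the count scaled to a common library size. Each column carries an identifier of its own, but the labels do not say that each is a separate animal, so p-values measure the spread between these libraries. Ptch1, a direct Hedgehog target, rose in each model (log2 fold changes 4.70, 4.14 and 2.99 for SmoM2, Gnas-eKO and PKI, edgeR adjusted p 3.5e-07, 0.0172 and 4.8e-05), and its Gnas-eKO call was lost without any one Con library (adjusted p up to 0.146). Gnas itself had 171 to 177 CPM in Gnas-eKO Con and 51.4 to 117 CPM in Gnas-eKO BCC (log2 fold change −1.11, edgeR adjusted p 0.0647). Smo, which encodes Smoothened, was 1.55 higher on the log2 scale in SmoM2 BCC than in its Con (edgeR adjusted p 1.13e-06). It was also higher in PKI (0.53, adjusted p 0.00187) and was 0.85 in Gnas-eKO (adjusted p 0.0503), so a higher level was not confined to SmoM2. Pkia, which need not carry reads of the PKI construct, checks no label. 1 library stood apart: of the 4 Gnas-eKO BCC libraries, replicate 2 lay nearest to the Con mean for 31 of the 50 members tested there (62%, against 47.5% of all genes tested). In SmoM2 the identifiers of BCC and Con carry different prefixes in the file headers, so tumour and prefix cannot be told apart there. The summed level of 8 keratinocyte markers was 62200 to 78300 CPM in Con and 42300 to 57900 CPM in BCC of SmoM2 (1 marker called higher and 5 lower), 61700 to 72100 and 32700 to 54500 CPM in Gnas-eKO (0 and 0), and 54100 to 72700 and 49200 to 78300 CPM in PKI (1 and 2), and the part of this shift in the results was not tested. Of the 63 members, 17 share exon bases with another gene, among them Efna3, Efna4, Epha1, Ephb1, Ephb4, Nrp1, Plxna1, Plxna4, Plxnb1, Plxnc1, Sema4a and Sema4c (33 to 970 bases), and since the sources used here do not say whether counting used strand, these counts are uncertain.

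In the nervous system these families carry the main attractive and repulsive signals that axons read. Secreted class 3 semaphorins bind a neuropilin, which pairs with a class A plexin that signals inside the cell, except that Sema3e binds Plxnd1 directly. Membrane semaphorins of the other classes bind plexins, netrins bind Dcc, Neo1 and Unc5 receptors, Slits bind Robo receptors, and ephrins bind Eph receptor kinases on touching cells. In epithelia the same proteins take part in cell sorting, adhesion and migration, and in the growth of vessels and nerves towards the tissue.

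Promoter sequence is shown for the 2 members that passed the test in all 3 models, Nrp2 and Sema5a, and for 2 whose effects differed between PKI and SmoM2, Sema7a (the largest such difference upward) and Sema3e (called in opposite directions). The sequences are from RefSeq (GRCm38.p6), plus strand, and end at the base before the gene's start in GENCODE M21, so they lie upstream of each gene. Capitals mark the GC box, the letters GGGCGG or their reverse CCGCCC, a motif bound by Sp factors, with overlapping matches counted. The Nrp2 stretch, chr1:62703067-62703284, held 4 such matches and 28 CG dinucleotides. The Sema5a stretch, chr15:32244563-32244809, held 5 matches and 17 CG dinucleotides. The Sema7a stretch, chr9:57939862-57940111, held 2 matches and 17 CG dinucleotides, and the Sema3e stretch, chr5:14025026-14025275, held 2 matches and 7 CG dinucleotides.
Nrp2: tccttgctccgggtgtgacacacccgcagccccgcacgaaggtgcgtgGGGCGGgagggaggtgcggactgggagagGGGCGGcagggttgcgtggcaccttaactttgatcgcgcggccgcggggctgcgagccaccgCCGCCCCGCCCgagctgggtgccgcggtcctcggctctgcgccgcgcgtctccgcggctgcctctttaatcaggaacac
Sema5a: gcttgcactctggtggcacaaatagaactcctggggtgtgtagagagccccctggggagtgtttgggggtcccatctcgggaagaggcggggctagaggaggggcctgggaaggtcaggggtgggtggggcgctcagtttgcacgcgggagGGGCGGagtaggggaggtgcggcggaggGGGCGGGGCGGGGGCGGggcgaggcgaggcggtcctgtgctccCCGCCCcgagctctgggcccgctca
Sema7a: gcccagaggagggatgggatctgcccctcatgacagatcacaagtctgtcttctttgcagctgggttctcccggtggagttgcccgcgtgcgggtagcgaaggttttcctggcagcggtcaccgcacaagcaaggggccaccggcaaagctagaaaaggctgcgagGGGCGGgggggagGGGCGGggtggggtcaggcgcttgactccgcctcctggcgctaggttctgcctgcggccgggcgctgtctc
Sema3e: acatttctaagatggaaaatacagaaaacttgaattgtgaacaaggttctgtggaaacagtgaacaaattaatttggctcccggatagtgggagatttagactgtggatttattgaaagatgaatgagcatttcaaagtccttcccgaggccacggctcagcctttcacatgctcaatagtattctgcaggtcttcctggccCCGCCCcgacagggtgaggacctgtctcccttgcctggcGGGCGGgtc

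The first pair is rich in G and C (72.5% and 71.7% of bases), and the Sema3e stretch is not (48%), with Sema7a between them at 66.4%. RefSeq promoters were matched for 54 of the 63 members, 70 promoters in all. A GC box stood within 250 bases before the start in 71.4% of these promoters and in 32.7% of all 32851 promoters of the table, a motif chosen after values were seen. The same windows held a median of 15 and 6 CG dinucleotides. Members are protein-coding by rule and the table was not so limited, so the contrast is no trait of guidance genes. The exact Gli motif GACCACCCA, on either strand (TGGGTGGTC in reverse), was in 0 of the 70 member promoters and in 83 of the 32851 (0.253%), each 300 bases long. At that share 0 is the likely count for 70 promoters, so it says nothing on Gli binding. These letters are a description of the windows only.

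The members differed widely in their level in control epidermis. Levels between genes were compared as CPM per kilobase of exon, over the 9 Con libraries, whose scaling was done within each model. Efna3, an ephrin held to the membrane by a lipid anchor, was at 115 (median, range 109 to 131), and Ephb6, an Eph receptor without kinase activity, at 106 (92 to 127). These ranges overlapped each other and lay above that of the next member, Efnb1, at 51 (44 to 54.2). Epha1, Efnb2 and Efna1 followed at 47.6, 47.4 and 45.8, with ranges that overlap their neighbours in the order. At the other end, Slit1, Ntn1 and Plxna4 had medians of 0.15, 0.0865 and 0.0547 CPM per kilobase. Nrp2 and Sema5a lay near the middle of the order, at ranks 29 and 28 of 63, with medians of 2.82 and 2.99. Of the 63 members, 9 never passed the filter on low counts and were not tested (Epha5, Epha10, Ntn5, Plxnb3, Robo4, Sema3a, Sema6b, Slit2 and Unc5c, at most 0.691 CPM in any library), 5 were tested in 1 or 2 models, and 49 in all 3.

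**Figure D1:**
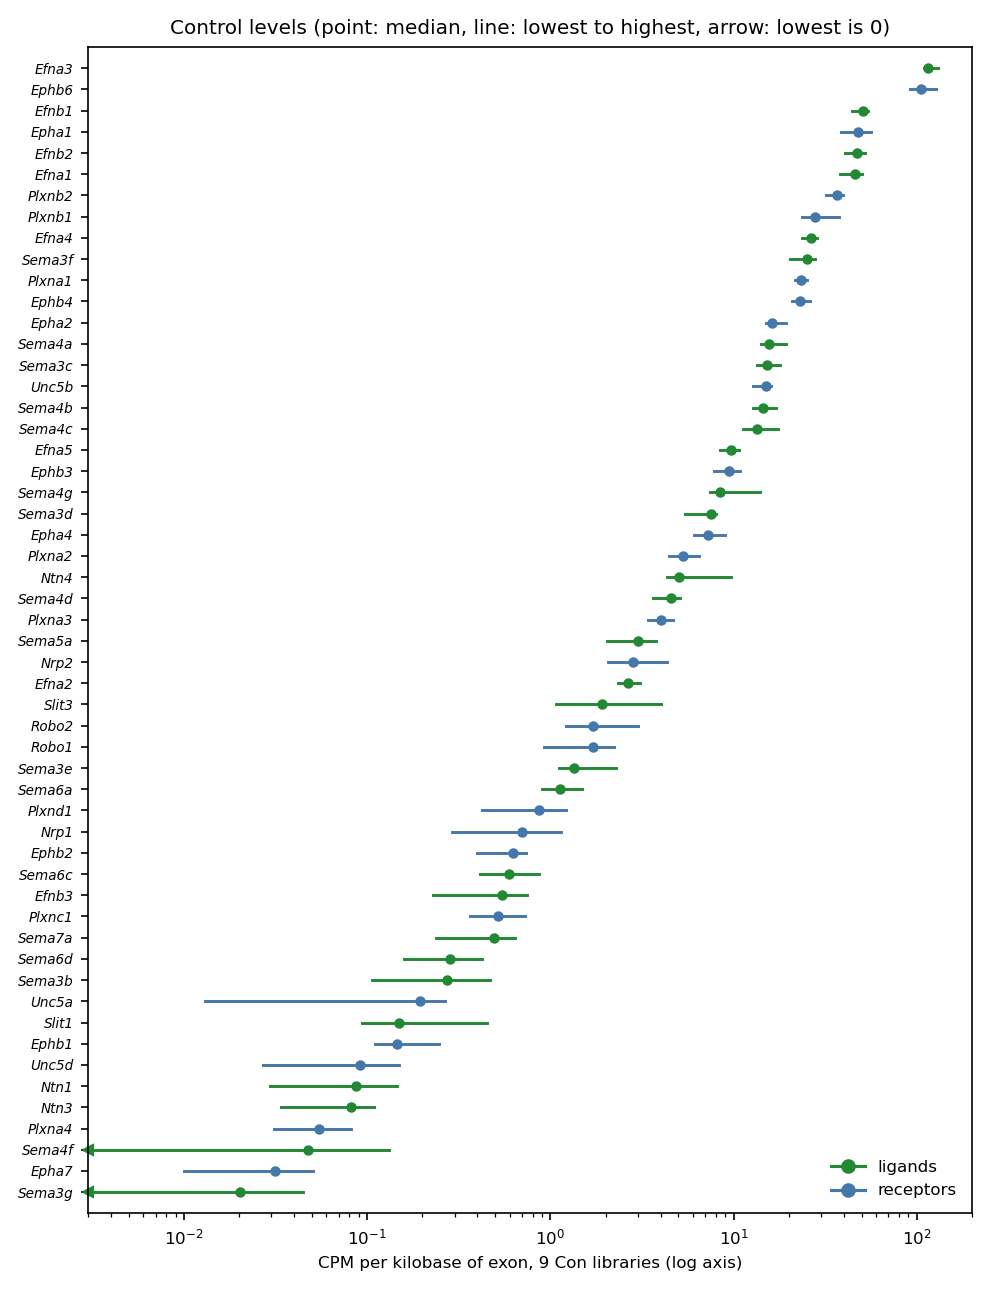
Level of each member tested in at least 1 model, as CPM per kilobase of exon on a log axis, with the median (point) and range (line) over the 9 Con libraries, ligands in green and receptors in blue. Efna3 and Ephb6 stand above all others, and Slit1, Ntn1 and Plxna4 lie near the low end, where an arrow marks a lowest value of 0.

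In SmoM2, 19 of the 52 members tested were higher in BCC and 12 lower at an adjusted p under 0.05 (edgeR quasi-likelihood test, Benjamini-Hochberg over all genes tested), and such members are termed called. Of all 16370 genes tested, 16.2% were called higher and 13.5% lower, so 59.6% of the members tested stand beside 29.7% of all genes. Calling can depend on how abundant a gene is, which was not tested here. The shares were therefore also taken over protein-coding genes whose mean log2 CPM was 0 or more, where 61.2% of 49 members and 33.9% of 12693 genes were called. In PKI, 14 of 51 members were called higher and 14 lower (54.9%), against 18.7% and 15.8% of all 16397 genes (34.5% in all), and above the same mean level 57.4% of 47 members and 38.6% of 12769 genes were called. In Gnas-eKO, 2 of 50 members were called higher and 0 lower, against 1.46% and 0.165% of 16409 genes (1.63% in all), and at that mean level 4.08% of 49 members and 1.99% of 12754 genes were called. At an unadjusted p under 0.05 there were 26 members in Gnas-eKO (52%, against 19.6% of all genes tested). DESeq2 called 13 members higher and 2 lower there, against 4.82% and 1.72% of all genes, and without BCC replicate 2 edgeR called 12 higher and 4 lower, against 7.36% and 4.43%. That library was singled out for lying nearest to Con, so its removal favours larger effects, and without any other library 0 or 1 members were called higher and 0 lower. Ligands were called higher 13 times and lower 6 times of 28 tested in SmoM2, and 8 and 10 times of 29 in PKI, the 8 including Sema3g, which passed the filter on low counts through BCC libraries alone. Ntn1 in SmoM2 and PKI and Plxna4 in SmoM2, each called higher, passed that filter only with BCC libraries. For receptors the counts were 6 and 6 of 24 in SmoM2 and 6 and 4 of 22 in PKI. Members had a median log2 fold change of 0.14 for SmoM2, 0.30 for Gnas-eKO and 0.15 for PKI, beside 0.00054, 0.02 and −0.0012 over all genes. All BCC libraries lay above all Con libraries for 21, 11 and 17 members of SmoM2, Gnas-eKO and PKI, an order found for 20.5%, 10.3% and 23.1% of all genes. All lay below for 12, 7 and 13 members, and for 18%, 9.16% and 20.1% of all genes.

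**Figure D2:**
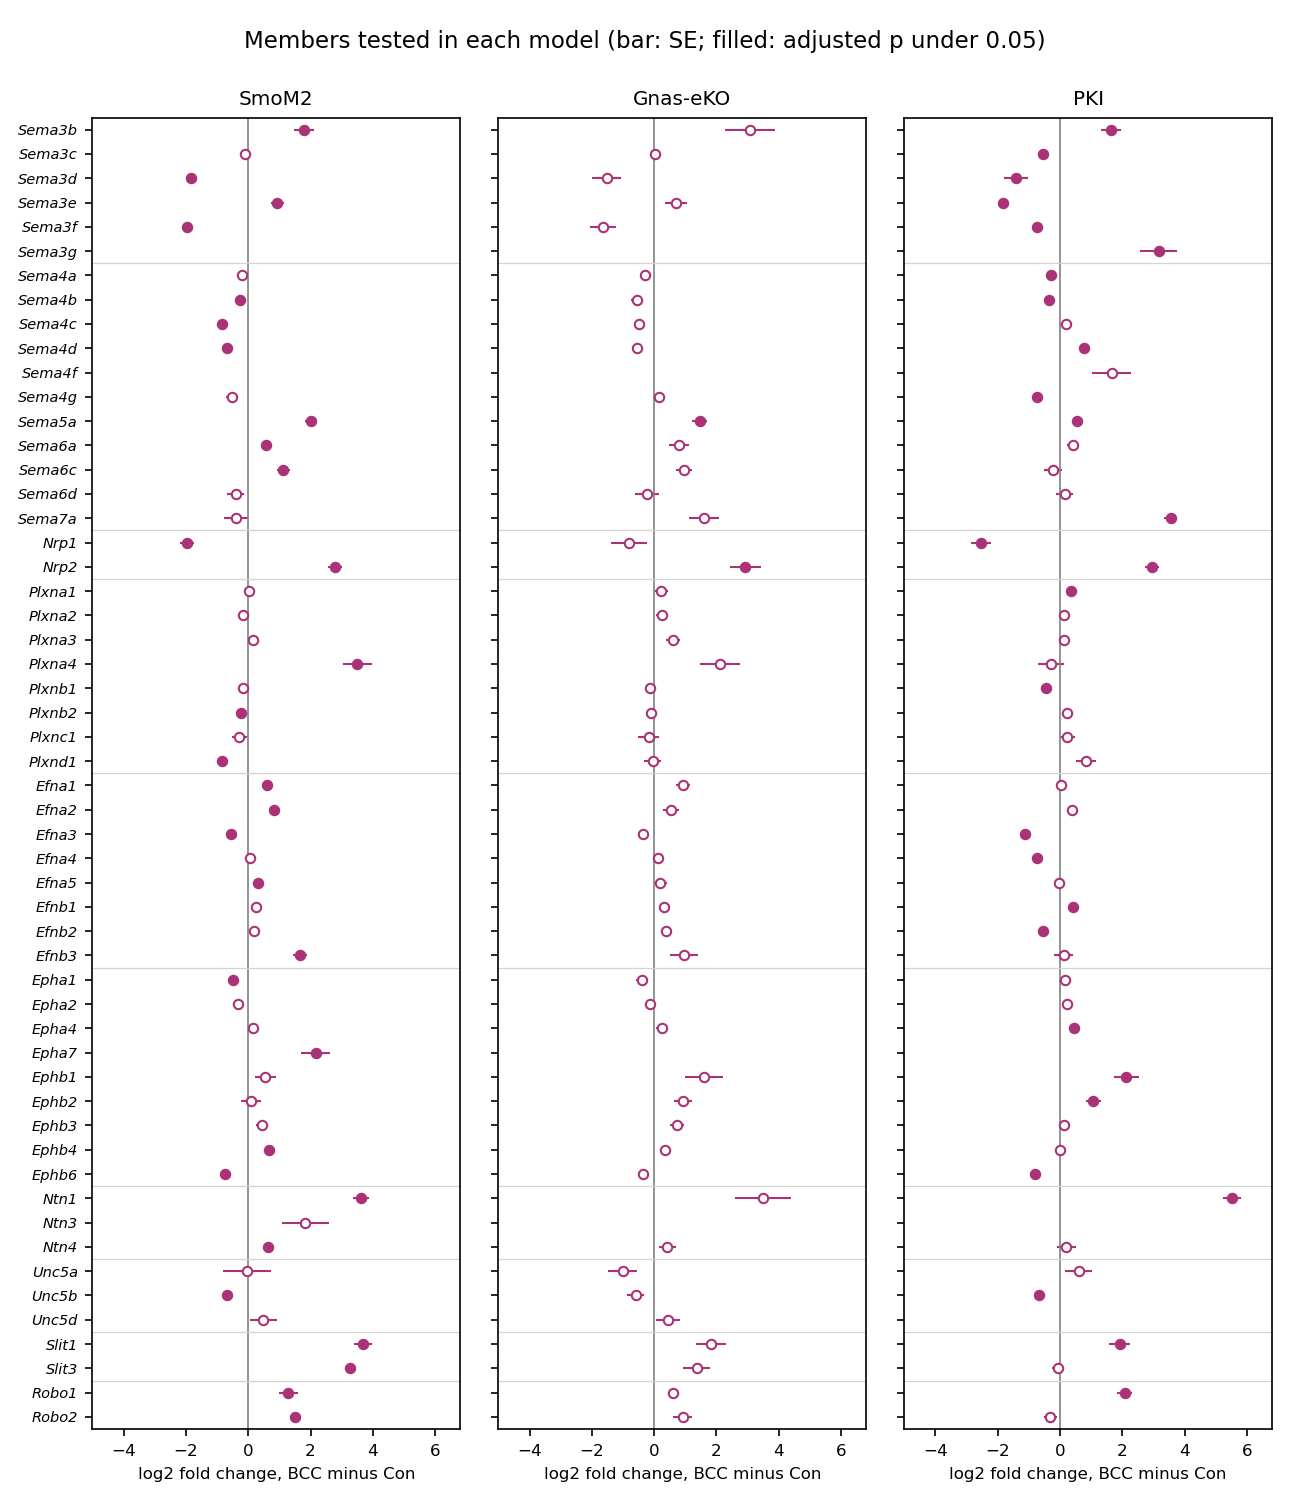
Log2 fold change of BCC over Con (points) with its standard error (bars) for every member tested, 1 panel per model, with grey lines between families and filled points for an adjusted p under 0.05. Filled points lie on both sides of 0 in SmoM2 and PKI, and in Gnas-eKO only Nrp2 and Sema5a are filled.

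The neuropilins moved in opposite directions in SmoM2 and PKI. Nrp2 (chromosome 1, 62703285 to 62818695, plus strand, ENSMUSG00000025969.15), a co-receptor for Sema3f and for lymphatic growth factors, had 27.3, 28.4 and 51 CPM in the SmoM2 Con libraries and 228, 256, 255 and 242 CPM in BCC. In Gnas-eKO it had 34.1, 29 and 38.1 CPM in Con and 412, 101, 154 and 360 CPM in BCC. The PKI libraries had 47.7, 24.5 and 33.4 CPM in Con and 258, 254, 270 and 317 CPM in BCC. No BCC library of any model reached down to a Con library, and the Gnas-eKO BCC libraries spread most, with replicate 2 the lowest. The log2 fold changes were 2.79 (SE 0.23), 2.93 (SE 0.49) and 2.96 (SE 0.22), with edgeR adjusted p of 0.000159, 0.0339 and 0.000137. Leaving out BCC replicate 2 kept the Gnas-eKO call (log2 fold change 3.20, adjusted p 0.00209), and leaving out any one of the other 6 libraries lost it (adjusted p up to 0.185). With all libraries, other settings gave 1.45e-09 to 0.0585.

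Nrp1 (chromosome 8, 128358604 to 128503363, plus strand), the co-receptor for Sema3a and for vascular endothelial growth factor, fell in SmoM2 and PKI. Its SmoM2 levels were 5.21, 6.81 and 5.34 CPM in Con and 1.56, 1.86, 1.27 and 1.18 CPM in BCC (log2 fold change −1.97, SE 0.22, edgeR adjusted p 0.000179). In PKI it went from 7.31, 8.2 and 11.3 CPM to 2.39, 1.18, 1.71 and 0.868 CPM (−2.53, SE 0.32, edgeR adjusted p 0.000627). The groups did not overlap in either model. In Gnas-eKO, Con had 3.19, 2.85 and 6.87 CPM and BCC 2.38, 4.61, 0.645 and 2.13 CPM, groups that overlap (−0.82, SE 0.58, edgeR adjusted p 0.484). Endothelial cells carry Nrp1, and the summed level of 10 endothelial markers was 1.85 to 3.76 CPM in SmoM2 Con and 6.61 to 10.1 CPM in BCC, and 1.93 to 5.92 and 7.21 to 9.35 CPM in PKI. Of those markers, 3 of 4 tested were called higher in SmoM2 and 2 of 3 in PKI, none was at 0 in all libraries, and their part in the Nrp1 values was not tested. In bulk RNA, fewer cells of a type and less RNA per cell cannot be told apart.

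**Figure D3:**
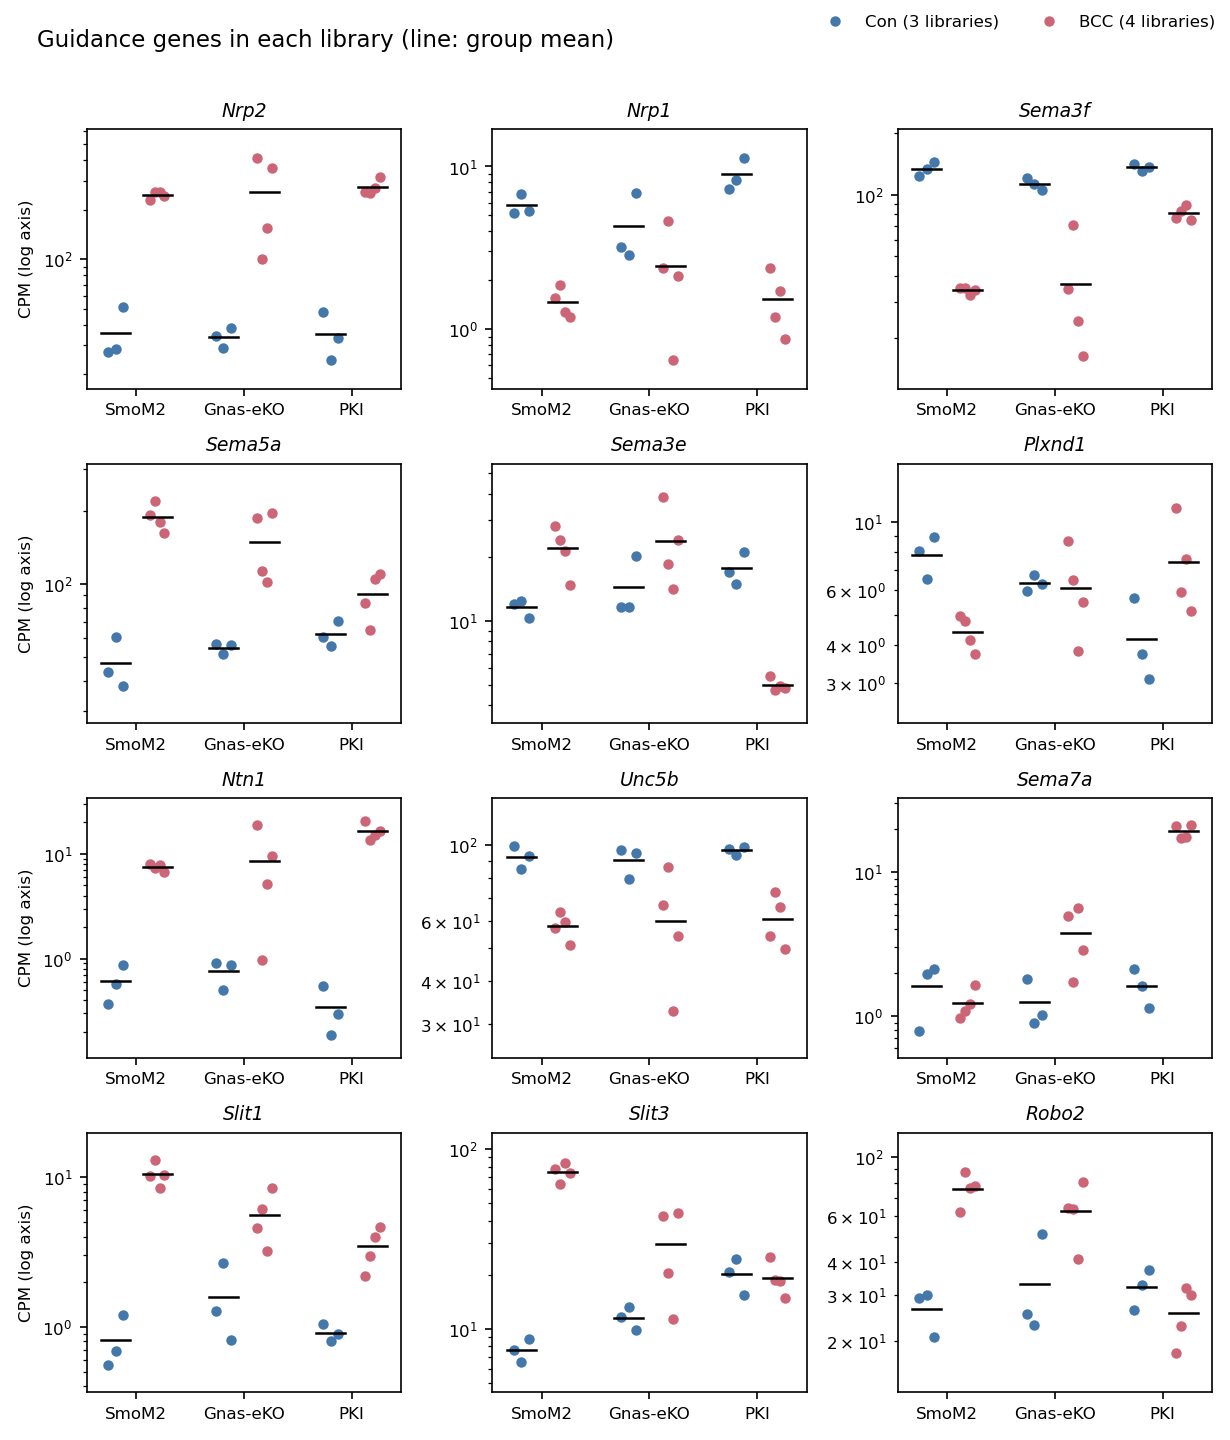
CPM (log axis) in each library of 12 guidance genes, with 3 Con libraries (blue) and 4 BCC libraries (red) per model and a line at the group mean. The BCC libraries of Nrp2 lie above Con in each model, while Sema7a is highest in PKI BCC and Slit3 in SmoM2 BCC.

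Among class 3 semaphorins, the secreted ligands of the neuropilins, 2 of 5 tested were called higher and 2 lower in SmoM2, and 2 of 6 higher and 4 lower in PKI (all genes 16.2% and 13.5%, then 18.7% and 15.8%). One of the PKI pair called higher, Sema3g, passed the filter through BCC libraries alone. Sema3f, a ligand of Nrp2, fell in both, and the SmoM2 fall was the deeper (difference PKI minus SmoM2 1.22, SE 0.10, edgeR interaction adjusted p 5.15e-06, and 3.81e-23 to 0.0509 under other settings). It had 123, 134 and 144 CPM in SmoM2 Con and 35.1, 35, 32.3 and 34 CPM in BCC (log2 fold change −1.97, SE 0.073, edgeR adjusted p 2.3e-07). In PKI, Sema3f had 141, 130 and 137 CPM in Con and 77, 83.3, 88.6 and 74.7 CPM in BCC (−0.75, SE 0.079, edgeR adjusted p 0.000272). In neither model did the groups overlap, and the 4 SmoM2 BCC libraries lay within 32.3 to 35.1 CPM of one another. The PKI call was lost in the joint fit of all 21 libraries (adjusted p 0.0567, the highest of its alternatives, the lowest being 1.31e-13). In Gnas-eKO, Sema3f had 121, 113 and 105 CPM in Con and 34.6, 71.2, 24 and 16.3 CPM in BCC, all below Con (−1.63, SE 0.42, edgeR adjusted p 0.0925). Without BCC replicate 2, the library singled out for lying nearest to Con, it was −2.17 (adjusted p 0.00223), and without any one other library it was not called. So in SmoM2 and PKI the co-receptor Nrp2 rose while its ligand Sema3f fell.

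Sema3d, a related secreted semaphorin, fell from 58.4, 64.7 and 51.5 CPM to 12.4, 15.7, 19.6 and 17.1 CPM in SmoM2 (−1.84, SE 0.15, edgeR adjusted p 1.98e-05). In PKI it fell from 64.9, 65.2 and 67.2 CPM to 12.2, 16.4, 37.6 and 32.2 CPM (−1.42, SE 0.38, edgeR adjusted p 0.027). The PKI BCC libraries formed a low pair (replicates 1 and 2) and a higher pair, all below Con. That call was lost without any one of the 3 Con libraries or BCC replicate 2 (adjusted p up to 0.0719), and other settings gave 0.00556 to 0.064. In Gnas-eKO, Con had 46.5, 64.1 and 68.5 CPM and BCC 20.8, 42.1, 8.6 and 12.1 CPM, again with no overlap (−1.52, SE 0.47, edgeR adjusted p 0.132). Without BCC replicate 2, the BCC library nearest to Con, the change was −2.10 (adjusted p 0.00622). Removal of a library singled out in this way favours a larger change, and without any one other library Sema3d was not called there.

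Sema3e, which binds Plxnd1 without a neuropilin and repels endothelial cells, moved one way in SmoM2 and the other in PKI. Its levels were 12.1, 12.4 and 10.3 CPM in SmoM2 Con and 28.3, 24.2, 21.4 and 14.8 CPM in BCC (0.94, SE 0.20, edgeR adjusted p 0.00738). In PKI they were 17, 15 and 21.2 CPM in Con and 5.49, 4.73, 4.92 and 4.83 CPM in BCC (−1.82, SE 0.15, edgeR adjusted p 9.42e-05). No library of one group entered the range of the other in either model. The difference between the effects was −2.76 (SE 0.26, edgeR interaction adjusted p 1.16e-05) against SmoM2 and −2.54 (SE 0.41, adjusted p 0.00371) against Gnas-eKO, where Con had 11.7, 11.7 and 20.3 CPM and BCC 38.5, 18.6, 14.2 and 24.2 CPM. Its receptor Plxnd1 fell in SmoM2, from 8.03, 6.53 and 8.93 CPM to 4.96, 4.76, 4.14 and 3.74 CPM (−0.83, SE 0.17, edgeR adjusted p 0.00582). In PKI, Plxnd1 had 5.68, 3.73 and 3.09 CPM in Con and 11.1, 5.91, 7.56 and 5.16 CPM in BCC, groups that overlap (0.83, SE 0.31, edgeR adjusted p 0.0658). The difference of the Plxnd1 effects, PKI minus SmoM2, was 1.66 (SE 0.37, edgeR interaction adjusted p 0.00532).

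Sema3b, a secreted semaphorin that binds neuropilins, rose in both models, with log2 fold changes of 1.79 for SmoM2 (SE 0.33, edgeR adjusted p 0.00299) and 1.63 for PKI (SE 0.33, adjusted p 0.00525). It was at 1.25, 1.56 and 2.23 CPM in SmoM2 Con and 3.63 to 8.56 CPM in BCC, and at 0.994 to 1.68 CPM in PKI Con and 2.62 to 5.9 CPM in BCC. Sema3g was near the detection limit, with 2, 1 and 1 counts in the PKI Con libraries and 7, 14, 19 and 18 counts in BCC (edgeR adjusted p 0.00395). It passed the filter on low counts there through BCC libraries alone, so its place in the PKI counts of higher members, ligands and class 3 semaphorins supports nothing, and it was not tested in the other models. Sema3c fell in PKI by 0.55 (SE 0.14, edgeR adjusted p 0.0168), a call lost without Con replicate 1 (adjusted p 0.0604, against 0.00245 to 0.0167 under other settings). Its PKI effect was not called different from that in SmoM2, −0.11 (difference −0.43, SE 0.18, edgeR interaction adjusted p 0.0954), or Gnas-eKO, 0.04 (−0.59, SE 0.20, adjusted p 0.0785).

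Of the class A plexins, which signal for the neuropilins, Plxna4 was called in SmoM2, Plxna1 in PKI, and Plxna2 and Plxna3 in no model. Other edgeR fits did call Plxna3 in Gnas-eKO, the joint fit of all libraries (0.60, adjusted p 0.0391) and that without BCC replicate 2 (0.76, adjusted p 0.0444). Plxna4 had 1.15, 0.751 and 0.436 CPM in SmoM2 Con and 12.3, 11.3, 8.23 and 4.25 CPM in BCC, without overlap (3.50, SE 0.46, edgeR adjusted p 0.000708). There Con replicate 3 was below the filter's minimum of 0.505 CPM, so Plxna4 passed the filter on low counts only with BCC libraries. Its place in the SmoM2 counts of higher members and receptors supports nothing. In PKI it had 0.79, 0.684 and 0.772 CPM in Con and 0.508, 0.36, 0.616 and 0.977 CPM in BCC (−0.29, SE 0.41, edgeR adjusted p 0.618). In Gnas-eKO it had 0.911, 0.671 and 0.865 CPM in Con and 5.05, 1.07, 1.67 and 6.45 CPM in BCC (2.12, SE 0.65, edgeR adjusted p 0.128). The effect was thus high in SmoM2 and near 0 in PKI, a difference of −3.79 (SE 0.62, edgeR interaction adjusted p 0.000673). Plxna1 rose by 0.36 in PKI (SE 0.091, edgeR adjusted p 0.0149), from 206 to 229 CPM to 246 to 304 CPM, which was lost without Con replicate 2 or 3 (adjusted p up to 0.064), with 0.00353 to 0.0782 under other settings.

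Of the semaphorins held in the membrane, Sema5a (chromosome 15, 32244810 to 32696341, plus strand), a class 5 protein that can attract or repel, was called higher in each model, as Nrp2 was. These were 2 of the 49 members tested in all 3 models, and 0.902% of all 15640 such genes were called higher in each, while 0 members and 0.0767% of genes were called lower in each. It had 43.5, 60.4 and 37.9 CPM in SmoM2 Con and 193, 221, 181 and 162 CPM in BCC (2.00, SE 0.18, edgeR adjusted p 0.000119). In Gnas-eKO it had 56.4, 51.6 and 55.9 CPM in Con and 187, 113, 102 and 197 CPM in BCC (1.46, SE 0.25, edgeR adjusted p 0.0345). The PKI levels were 60.6, 55.6 and 70.2 CPM in Con and 83.8, 64.9, 105 and 110 CPM in BCC (0.55, SE 0.18, edgeR adjusted p 0.0453). The groups stayed apart in SmoM2 and Gnas-eKO and overlapped in PKI, where BCC replicate 2 was below Con replicate 3. Leaving out any one library but BCC replicate 2 (adjusted p 0.00744) lost the PKI call (up to 0.147), and other settings gave 0.00939 to 0.0762. In Gnas-eKO the call was lost without any one Con library, BCC replicate 1 or BCC replicate 4 (up to 0.186), was kept without BCC replicate 2 (0.00661) or 3 (0.0276), and ranged from 5.53e-06 to 0.0616 under other settings. The PKI effect was smaller than the SmoM2 effect by 1.45 (difference −1.45, SE 0.27, edgeR interaction adjusted p 0.00234).

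Sema7a, a lipid-anchored semaphorin that binds integrins and Plxnc1 and acts in immune responses, was high in PKI. It had 2.12, 1.62 and 1.13 CPM in PKI Con and 21, 17.1, 17.6 and 21.2 CPM in BCC (3.55, SE 0.21, edgeR adjusted p 3.31e-05). In SmoM2 it had 0.784, 1.96 and 2.12 CPM in Con and 0.965, 1.08, 1.22 and 1.64 CPM in BCC (−0.39, SE 0.38, edgeR adjusted p 0.485), and in Gnas-eKO 1.82, 0.894 and 1.02 CPM in Con and 4.91, 1.72, 5.65 and 2.86 CPM in BCC (1.60, SE 0.48, edgeR adjusted p 0.124). All PKI BCC libraries were above every other library for this gene. The effect in PKI exceeded that in SmoM2 by 3.94 (SE 0.42, edgeR interaction adjusted p 3.52e-05) and that in Gnas-eKO by 1.96 (SE 0.52, adjusted p 0.0332). The latter was lost without Gnas-eKO Con replicate 1 or BCC replicate 4, PKI Con replicate 2 or 3, or PKI BCC replicate 1, 2 or 4 (adjusted p up to 0.119, against 0.00351 to 0.0385 under other settings). The receptor Plxnc1 had 3.04 to 4.49 CPM in PKI Con and 3.58 to 5.8 CPM in BCC (0.23, SE 0.24, edgeR adjusted p 0.493).

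Class 4 semaphorins signal mainly through class B plexins. Sema4d, which binds Plxnb1 and Plxnb2 and is abundant on leukocytes, had 35.5, 38.8 and 39.2 CPM in SmoM2 Con and 20.5, 25.9, 25.8 and 21.6 CPM in BCC (−0.69, SE 0.10, edgeR adjusted p 0.000933). PKI gave 29, 34.5 and 28 CPM in Con and 53.5, 55.5, 46 and 53.1 CPM in BCC (0.77, SE 0.10, edgeR adjusted p 0.000851). The groups were separate in both models and in opposite order. Its effect in PKI was higher than in SmoM2 by 1.46 (SE 0.15, edgeR interaction adjusted p 2.07e-05) and than in Gnas-eKO, where it was −0.55, by 1.32 (SE 0.21, adjusted p 0.00288). Of 9 leukocyte markers, 8 were called higher in PKI, where their summed level was 53.4 to 119 CPM in Con and 270 to 498 CPM in BCC. The sums were 87 to 101 and 60.5 to 113 CPM in SmoM2 (1 higher, 1 lower) and 103 to 132 and 94.6 to 254 CPM in Gnas-eKO (0 called by edgeR). In SmoM2 and Gnas-eKO, where the Sema4d effects were −0.69 and −0.55, the markers had median log2 fold changes of −0.09 and 0.45. No marker was at 0 in all libraries. Their part in the Sema4d and Sema7a values was not tested.

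Sema4c, a ligand of Plxnb2, fell in SmoM2 from 80.2, 62.1 and 67.7 CPM to 35, 39.1, 42.4 and 40.1 CPM (−0.84, SE 0.10, edgeR adjusted p 0.000256). In PKI the values were 60.8, 61.1 and 52.8 CPM in Con and 72.7, 65.8, 61.6 and 63.6 CPM in BCC (0.18, SE 0.089, edgeR adjusted p 0.151), and the difference of effects was 1.02 (SE 0.14, edgeR interaction adjusted p 0.000204). Against the Gnas-eKO effect of −0.49 the difference was 0.68 (SE 0.19, adjusted p 0.043), which held without Gnas-eKO Con replicate 1, Gnas-eKO BCC replicate 1, 2 or 3, or PKI BCC replicate 3 and was lost without any other library (up to 0.127, against 0.0148 to 0.106 under other settings). Plxnb2 fell in SmoM2 (−0.24, SE 0.068, edgeR adjusted p 0.0236) and stood at 0.22 in PKI (SE 0.082, adjusted p 0.0617), a difference of 0.47 (SE 0.10, edgeR interaction adjusted p 0.00458). The SmoM2 call on Plxnb2 was lost without Con replicate 1 or 2 or BCC replicate 1, 2 or 4 (adjusted p up to 0.0964, against 0.00715 to 0.0983 under other settings).

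Of class 4, Sema4b fell in both models, by 0.26 in SmoM2 (SE 0.07, edgeR adjusted p 0.0185) and by 0.36 in PKI (SE 0.076, adjusted p 0.0062). The SmoM2 call was lost without Con replicate 1 or 2 or BCC replicate 2 (up to 0.0573, against 0.00798 to 0.122 under other settings). Sema4a and Sema4g fell in PKI by 0.30 (SE 0.071, edgeR adjusted p 0.0116) and 0.74 (SE 0.12, adjusted p 0.00182). For Sema4g the effect in PKI was lower than that in Gnas-eKO, 0.14, by 0.88 (difference −0.88, SE 0.20, edgeR interaction adjusted p 0.0172). Plxnb1, the main Sema4d receptor, fell by 0.46 in PKI (SE 0.14, edgeR adjusted p 0.0356) with overlapping groups, 242 to 361 CPM in Con and 195 to 257 CPM in BCC. It was lost without Con replicate 2 or 3 or BCC replicate 1, 2 or 4 (adjusted p up to 0.136, against 0.00355 to 0.0387 under other settings). Of class 6, Sema6c rose in SmoM2 from 2.44, 2.89 and 4.14 CPM to 6.07 to 7.67 CPM (1.13, SE 0.21, edgeR adjusted p 0.00293), with a PKI effect of −0.23 and a difference of −1.37 (SE 0.36, edgeR interaction adjusted p 0.0129, and 0.00244 to 0.0595 under other settings). Sema6a also rose in SmoM2 (log2 fold change 0.56, SE 0.15, edgeR adjusted p 0.0211), lost without Con replicate 1 or 2 (up to 0.0611, against 0.00657 to 0.139 under other settings).

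In SmoM2 the Slits tested, Slit1 and Slit3, and the Robo receptors tested, Robo1 and Robo2, were called higher, as were 16.2% of all genes, and 2 genes tested per family are too few for a statement on the family. Slit3 (chromosome 11, 35121224 to 35708507, plus strand), a secreted Robo ligand, had 7.61, 6.53 and 8.82 CPM in SmoM2 Con and 77.8, 63.7, 83.5 and 73.6 CPM in BCC (3.28, SE 0.13, edgeR adjusted p 3.62e-07). For PKI the values were 20.8, 24.4 and 15.4 CPM in Con and 25, 18.7, 18.5 and 14.8 CPM in BCC (−0.071, SE 0.20, edgeR adjusted p 0.809). In Gnas-eKO it had 11.6, 13.2 and 9.82 CPM in Con and 42.5, 20.4, 11.3 and 44.4 CPM in BCC (1.36, SE 0.44, edgeR adjusted p 0.146). The SmoM2 groups were far apart, the PKI groups mixed, and in Gnas-eKO replicate 3 alone fell within the Con range. The Slit3 effect in PKI was lower than in SmoM2 by 3.35 (difference −3.35, SE 0.26, edgeR interaction adjusted p 2.87e-06).

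Slit1, the related ligand, rose in both models. It had 0.554, 0.693 and 1.2 CPM in SmoM2 Con and 10.2, 13, 8.47 and 10.4 CPM in BCC (3.69, SE 0.28, edgeR adjusted p 1.43e-05), and 1.04, 0.808 and 0.891 CPM in PKI Con and 2.19, 2.98, 4 and 4.67 CPM in BCC (1.91, SE 0.33, edgeR adjusted p 0.00242). Gnas-eKO had 1.27, 2.68 and 0.814 CPM in Con and 4.58, 6.17, 3.23 and 8.44 CPM in BCC (1.82, SE 0.48, edgeR adjusted p 0.0942). BCC was above Con in each model, and the PKI effect was smaller than the SmoM2 effect (difference −1.78, SE 0.44, edgeR interaction adjusted p 0.00909).

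Of the receptors, Robo1 had 15.3, 36.7 and 23.5 CPM in SmoM2 Con and 61.2, 78.2, 54.5 and 51.3 CPM in BCC (1.29, SE 0.30, edgeR adjusted p 0.0189), and 26.3, 29 and 33.8 CPM in PKI Con and 86.9, 102, 154 and 161 CPM in BCC (2.08, SE 0.24, edgeR adjusted p 0.000789). The groups did not overlap in either, and the SmoM2 call was lost without Con replicate 3 (adjusted p 0.0799, against 2.46e-06 to 0.0459 under other settings). The Robo1 effect in PKI exceeded that in Gnas-eKO, 0.61, by 1.48 (SE 0.27, edgeR interaction adjusted p 0.00626). Robo2 had 29.1, 30.1 and 20.7 CPM in SmoM2 Con and 61.8, 88, 76.5 and 77.6 CPM in BCC (1.51, SE 0.16, edgeR adjusted p 0.000164). In PKI it had 26.2, 32.6 and 37.3 CPM in Con and 18, 22.8, 31.8 and 30.1 CPM in BCC (−0.31, SE 0.20, edgeR adjusted p 0.27), a difference of −1.82 (SE 0.28, edgeR interaction adjusted p 0.000592). Of 8 fibroblast markers, 3 were called higher for SmoM2, 1 for Gnas-eKO and 3 for PKI, with a summed level of 17.4 to 40.1 CPM in Con and 394 to 534 CPM in BCC of SmoM2, 16.3 to 27.8 and 95.9 to 580 CPM in Gnas-eKO, and 15.7 to 43.1 and 84.6 to 144 CPM in PKI. Most of that sum was Dcn (368 to 509 CPM in SmoM2 BCC), while Col1a1 (at most 3.72 CPM) and Pdgfra (0.343 to 0.894 CPM) were low there and not called, and none was at 0 in all libraries. Their part in the Slit and Robo values was not tested.

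Netrins are secreted cues that attract through Dcc and repel through Unc5 receptors. Ntn1 (chromosome 11, 68209364 to 68400823, minus strand) was close to the detection limit in Con and rose in SmoM2 and PKI. It had 0.369, 0.578 and 0.871 CPM in SmoM2 Con and 7.95, 7.26, 7.85 and 6.66 CPM in BCC (3.62, SE 0.27, edgeR adjusted p 1.32e-05). In PKI it had 0.543, 0.186 and 0.297 CPM in Con and 20.6, 13.5, 15.3 and 16.6 CPM in BCC (5.52, SE 0.30, edgeR adjusted p 2.6e-05), the largest rise of a called member in any model. Con replicate 1 of SmoM2 and Con replicates 2 and 3 of PKI were below the filter's minimum (0.505 and 0.509 CPM). Ntn1 thus passed the filter on low counts in both only with BCC libraries. Its place in the counts of higher members, ligands and shared calls supports nothing. In Gnas-eKO, Ntn1 had 0.911, 0.503 and 0.865 CPM in Con and 18.8, 0.966, 5.11 and 9.46 CPM in BCC (3.49, SE 0.89, edgeR adjusted p 0.0888). Every BCC library was above Con, though Gnas-eKO BCC replicate 2 barely so. Without that library, singled out for lying nearest to Con, the change was 3.86 (adjusted p 0.00456), and without any one other library Ntn1 was not called there. The PKI effect exceeded that of SmoM2 by 1.90 (SE 0.44, edgeR interaction adjusted p 0.00666), a call lost in the joint fit of all 21 libraries (adjusted p 0.205, over a range of alternatives from 0.000938).

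Of the netrin receptors, Unc5b, also an endothelial guidance receptor, fell in both models. It had 99.7, 85.2 and 92.8 CPM in SmoM2 Con and 57.4, 63.7, 59.6 and 51 CPM in BCC (−0.68, SE 0.089, edgeR adjusted p 0.000414), and 97.1, 93.8 and 99 CPM in PKI Con and 54.2, 72.9, 66 and 49.8 CPM in BCC (−0.67, SE 0.13, edgeR adjusted p 0.00359). The groups did not overlap. In Gnas-eKO, Con had 79.5 to 96.9 CPM and BCC 66.8, 86.1, 32.8 and 54.3 CPM (−0.59, SE 0.28, edgeR adjusted p 0.283). Dcc was at 0 to 0.173 CPM in the libraries of the 3 models and was not tested, and Neo1 was called in none (−0.24, −0.30 and −0.13). Ntn4, a netrin of basement membranes, rose in SmoM2 (0.64, SE 0.12, edgeR adjusted p 0.00265), from 17, 16.4 and 21.6 CPM to 26.8 to 31.7 CPM, and the joint fit of all libraries gave 0.109, the highest of its other settings (lowest 2.47e-05).

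**Figure D4:**
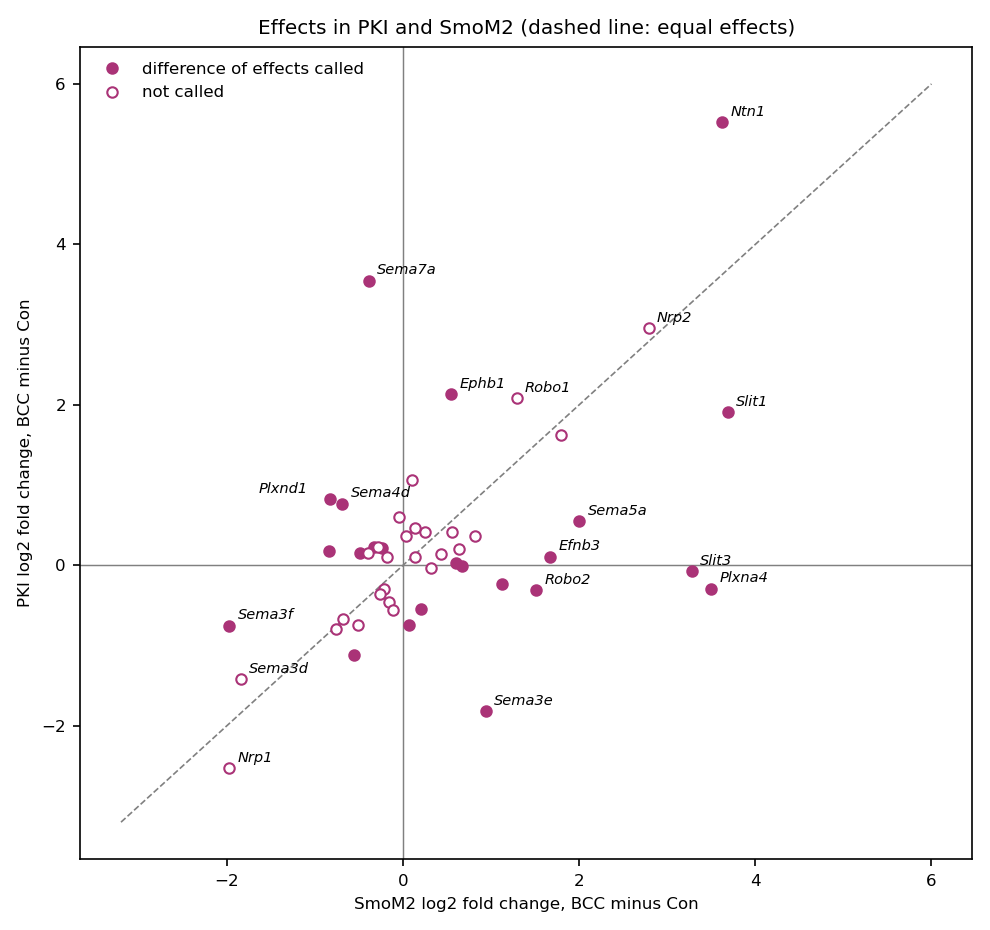
Log2 fold change of BCC over Con in PKI (vertical axis) against SmoM2 (horizontal axis) for the 49 members tested in both, filled where the difference of the effects was called (23 members), with a dashed line of equal effects. Nrp2, Nrp1 and Sema3d lie near the line, Sema7a above it, and Slit3, Plxna4 and Robo2 below it at PKI effects near 0.

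Ephrins and Eph receptors, which signal in both directions between touching cells, held the most abundant members. Of 8 ephrins, 4 were called higher and 1 lower in SmoM2, and 1 higher and 3 lower in PKI, where all genes gave 16.2% and 13.5% in SmoM2 and 18.7% and 15.8% in PKI. Efna3 fell in both. It had 266, 285 and 318 CPM in SmoM2 Con and 194, 172, 200 and 219 CPM in BCC (−0.56, SE 0.093, edgeR adjusted p 0.00159), and 280, 318 and 271 CPM in PKI Con and 112, 144, 130 and 147 CPM in BCC (−1.12, SE 0.11, edgeR adjusted p 0.000178). Con and BCC were separate in both, and the fall was deeper in PKI (difference −0.56, SE 0.15, edgeR interaction adjusted p 0.0137). Against the Gnas-eKO effect of −0.37 the difference was −0.75 (SE 0.20, adjusted p 0.0328), which held without Gnas-eKO BCC replicate 2 or 3 or PKI BCC replicate 2 or 4 and was lost without any other library (up to 0.0874, against 0.00715 to 0.0593 under other settings).

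Efna4 and Efnb2 fell in PKI without a call in the other models, though edgeR's joint fit of all libraries called Efnb2 higher in Gnas-eKO (0.37, adjusted p 0.0269). Efna4 had 37.6, 42.7 and 39 CPM in PKI Con and 22.5, 22.5, 24.9 and 25.5 CPM in BCC (−0.74, SE 0.088, edgeR adjusted p 0.000464), with effects of 0.073 in SmoM2 and 0.13 in Gnas-eKO. The differences were −0.81 (SE 0.15, edgeR interaction adjusted p 0.00139) and −0.87 (SE 0.13, adjusted p 0.0026). Efnb2, an ephrin of arterial cells and epidermis, had 358, 340 and 331 CPM in PKI Con and 253, 253, 228 and 212 CPM in BCC (−0.54, SE 0.083, edgeR adjusted p 0.00149), with effects of 0.20 and 0.38 and differences of −0.74 (SE 0.11, edgeR interaction adjusted p 0.000427) and −0.91 (SE 0.18, adjusted p 0.00823). Both genes were thus lower in each PKI BCC library than in each PKI Con library. Efnb1 rose in PKI, from 169 to 177 CPM to 227 to 235 CPM (0.41, SE 0.063, edgeR adjusted p 0.00139).

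In SmoM2 the called ephrins were mainly higher. Efnb3 had 2.12, 1.73 and 1.58 CPM in Con and 6.43, 6.57, 4.28 and 5.89 CPM in BCC (1.67, SE 0.22, edgeR adjusted p 0.000482), beside an effect of 0.11 in PKI and a difference of −1.56 (SE 0.35, edgeR interaction adjusted p 0.0052). Efna1 rose from 81.6 to 88.5 CPM to 112 to 152 CPM (0.60, SE 0.11, edgeR adjusted p 0.00272), Efna2 from 4.96 to 5.95 CPM to 8.59 to 10.4 CPM (0.82, SE 0.15, adjusted p 0.00244) and Efna5 from 35.2 to 43.3 CPM to 48.4 to 49.4 CPM (0.32, SE 0.082, adjusted p 0.0155). The Efna5 call was lost without Con replicate 1 or 2 (adjusted p up to 0.0538, against 0.00804 to 0.14 under other settings). For Efna1 the PKI effect of 0.03 was below that in SmoM2 (difference −0.57, SE 0.15, edgeR interaction adjusted p 0.0118, and 0.0035 to 0.103 under other settings). It was also below the 0.93 of Gnas-eKO (difference −0.90, SE 0.25, adjusted p 0.0393), which held without Gnas-eKO BCC replicate 2 or 3 or PKI BCC replicate 3 and was lost without any other library (up to 0.0926, against 0.0127 to 0.0995 under other settings).

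Of the Eph receptors, 2 of 9 tested were called higher and 2 lower in SmoM2, and 3 of 8 higher and 1 lower in PKI. As shares these were 22.2% and 22.2% against 16.2% and 13.5% of all genes in SmoM2, and 37.5% and 12.5% against 18.7% and 15.8% in PKI, some of them near the share of all genes. Ephb6 fell in both, from 386, 478 and 438 CPM to 256, 253, 257 and 259 CPM in SmoM2 (−0.76, SE 0.077, edgeR adjusted p 8.39e-05), and from 399, 445 and 415 CPM to 194, 248, 258 and 273 CPM in PKI (−0.79, SE 0.11, edgeR adjusted p 0.00109). The 4 SmoM2 BCC libraries lay between 253 and 259 CPM. Epha1 fell in SmoM2 from 188, 199 and 222 CPM to 140 to 152 CPM (−0.49, SE 0.07, edgeR adjusted p 0.000655) and was 0.16 in PKI, a difference of 0.66 (SE 0.12, edgeR interaction adjusted p 0.0012). Ephb4, the venous receptor of Efnb2, rose in SmoM2 from 99.5 to 118 CPM to 155 to 187 CPM (0.67, SE 0.089, edgeR adjusted p 0.000445), against −0.014 in PKI, a difference of −0.68 (SE 0.12, edgeR interaction adjusted p 0.0011).

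In PKI the called Eph receptors other than Ephb6 were higher. Ephb1 had 1.73, 0.994 and 0.772 CPM in Con and 7.47, 3.29, 3.61 and 6.4 CPM in BCC (2.13, SE 0.40, edgeR adjusted p 0.00377). Its difference from the SmoM2 effect of 0.55 was 1.58 (SE 0.55, edgeR interaction adjusted p 0.0482), which other settings placed at 0.0261 to 0.124. It held without SmoM2 BCC replicate 3, PKI Con replicate 1 or PKI BCC replicate 2 or 3 and was lost without any other library (up to 0.119). Ephb2 rose from 4.99, 7.89 and 8.56 CPM to 13.6, 16.2, 10.6 and 19.3 CPM (1.07, SE 0.25, edgeR adjusted p 0.00987). Epha4 rose by 0.46 (SE 0.13, edgeR adjusted p 0.0255), lost without any one Con library or BCC replicate 2 (up to 0.0915, against 0.00875 to 0.0408 under other settings). Epha2, a receptor of epidermal differentiation, was called in no model, with effects of 0.23 in PKI and −0.33 in SmoM2 that differed by 0.56 (SE 0.17, edgeR interaction adjusted p 0.0263). That difference was lost without SmoM2 Con replicate 3, SmoM2 BCC replicate 1 or 4, PKI Con replicate 1 or 3, or PKI BCC replicate 2 (up to 0.0651, against 0.01 to 0.0339 under other settings). Epha7 rose in SmoM2, from 5, 3 and 7 counts to 25, 37, 17 and 20 counts (2.17, SE 0.46, edgeR adjusted p 0.00627). It too passed the filter through BCC libraries alone, was not tested in the other models, and supports nothing in the SmoM2 counts of higher members, receptors and Eph receptors.

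Across models, 6 of the 49 members tested in both SmoM2 and PKI were called higher in both (12.2%, against 5.48% of all 15772 genes tested in both), namely Nrp2, Ntn1, Robo1, Sema3b, Sema5a and Slit1. They made up 31.6% of the members called higher in SmoM2 and 42.9% of those in PKI, where the shares among all genes called higher were 32.7% and 28.2%. Of them, Ntn1 passed the filter on low counts in both models only with BCC libraries. Another 7 of the 49 were called lower in both (14.3%, against 5.22% of all genes): Efna3, Ephb6, Nrp1, Sema3d, Sema3f, Sema4b and Unc5b. These were 58.3% of the members called lower in SmoM2 and 50% of those in PKI, beside 37.2% and 31.8% among all genes called lower. Sema3e was called higher in SmoM2 and lower in PKI, and Sema4d lower and higher, 1 of the 49 members each (2.04%), against 1.43% and 0.875% of all genes. Tested directly, the PKI and SmoM2 effects differed for 23 of 54 members, 10 toward higher in PKI and 13 toward lower, against 12.6% and 12.3% of all genes (24.9% in all). PKI and Gnas-eKO effects differed for 10 of 53, 4 higher and 6 lower in PKI, against 4.49% and 4.57% (9.06% in all). Gnas-eKO and SmoM2 effects differed for 0 of 53 by edgeR (0.0758% of all genes higher and 0.0991% lower, 0.175% in all), and for 1, lower in Gnas-eKO, by DESeq2 (0.452% of all genes lower). By edgeR 7 were at an unadjusted p under 0.05, and the share of all genes there was not taken, so nothing is drawn from the 7.

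Levels also varied between the Gnas-eKO BCC libraries for genes that are no members, Ptch1 with 944, 271, 317 and 830 CPM in BCC replicates 1 to 4, and Dcn, a fibroblast gene, with 112, 570, 56.6 and 251 CPM. The part of either gene's variation in the members' values was not tested.

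Of 54 other guidance genes, co-receptors and cytoplasmic partners, 49 were tested in each model. In SmoM2, 22 were called higher and 7 lower (16.2% and 13.5% of all genes), in PKI 16 and 10 (18.7% and 15.8%), and in Gnas-eKO 4 and 0 (1.46% and 0.165%). Nrcam, an adhesion molecule that associates with neuropilins, had the largest change in SmoM2, from 4.79 to 10 CPM in Con to 198 to 252 CPM in BCC (5.03, SE 0.27, edgeR adjusted p 1.64e-05). It also rose by 4.11 in Gnas-eKO (SE 0.36, adjusted p 0.00699, lost without any one Con library, up to 0.0763) and by 2.18 in PKI (SE 0.25, adjusted p 0.000542). Flrt2, a ligand of Unc5 receptors, rose from 8.5 to 10.7 CPM to 53.1 to 55.6 CPM in SmoM2 (2.45, SE 0.10, edgeR adjusted p 3.5e-07) and by 1.97 in PKI (SE 0.14, adjusted p 6.07e-05), and was 2.18 in Gnas-eKO (adjusted p 0.0533). Farp1, an exchange factor linked to plexin signalling, was higher by 2.35 in SmoM2 (SE 0.15, edgeR adjusted p 7.86e-06), by 2.17 in Gnas-eKO (SE 0.39, adjusted p 0.0403) and by 1.77 in PKI (SE 0.19, adjusted p 0.000379). Srgap1, a GTPase-activating protein that binds Robo receptors, was higher by 1.63 in SmoM2 (SE 0.23, edgeR adjusted p 0.000771), by 2.42 in Gnas-eKO (SE 0.35, adjusted p 0.0233) and by 1.95 in PKI (SE 0.16, adjusted p 0.000103). In Gnas-eKO the Farp1 call was lost without any one library but BCC replicate 2 (up to 0.205, against 9.75e-07 to 0.0659 under other settings). The Srgap1 call was lost there without any one Con library, BCC replicate 1 or BCC replicate 4 (up to 0.155, against 3.76e-10 to 0.053 under other settings). Crmp1 and Dpysl2, collapsin response mediators downstream of semaphorins, rose by 2.51 (SE 0.54, edgeR adjusted p 0.00646) and 1.96 (SE 0.38, adjusted p 0.00421) in PKI. Dpysl2 also rose in SmoM2 (1.84, SE 0.37, edgeR adjusted p 0.00454) and was 1.4 in Gnas-eKO (adjusted p 0.189), while Crmp1 was 0.21 in SmoM2 (adjusted p 0.798) and 0.66 in Gnas-eKO (adjusted p 0.594).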

How the data were processed

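Polyadenylated RNA of tail keratinocytes was sequenced with a stranded ligation kit, per the labels' protocols, in 21 libraries (3 Con and 4 BCC in each of 3 models). The authors deposited estimated counts per gene, 33.1% of which were not whole, and a second table of signal values that equal those counts times 1 factor per library plus a small constant. The submitters' processing notes name bcl2fastq 2.20, cutadapt 1.18, STAR 2.7.0f, Partek and mm10, without roles; counting settings are not given in the sources used here.

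Counts were rounded and tested per model with edgeR 4.0.16 (robust quasi-likelihood, TMM scaling, its default filter on low counts, Benjamini-Hochberg adjustment over all genes, threshold 0.05) in R 4.3.3, without a block or covariate. Differences between models came from an interaction term over the 14 libraries of both. The SE was taken from the fold change and its F statistic (the absolute log2 value over the root of F). Levels are CPM on TMM-scaled library sizes within a model, and 3 counts, at most 0.186 CPM, mark the precision of low levels. Alternatives were RLE scaling, no filter, DESeq2 1.42.0, the replicate number as a block, a joint fit, sex as a covariate (read from sex-linked genes), limma 3.58.1 on the authors' values plus 1 or 0.1, and leaving out each library. The scripts were tested on simulated data.

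The members and lists were chosen with earlier results of these data known. Genes named are, per model, the 4 highest and 4 lowest called members whose mean log2 CPM was 0 or more, members called in all 3 models or with a called difference between models, ligand and receptor partners, and up to 5 other guidance genes per model; further called members are named to complete the counts. Replicate numbers did not pair samples (mean correlation of same-numbered libraries −0.11, 0.12 and 0.15 for SmoM2, Gnas-eKO and PKI).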

Additional observations from a re-analysis of the deposited data

Results flagged for a closer look

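In the Gnas-eKO BCC group, replicate 2 lay far from the other 3 libraries for 3 members. Efna1 was at 94.8 CPM there and at 165 to 183 CPM in the others, Efnb3 at 1.82 against 3.54 to 3.92 CPM, and Sema4d at 31 against 20.6 to 22 CPM. In each case replicate 2 was the BCC library nearest to Con. These came from 84 groups of 4 libraries (28 members in 3 models), and chance alone marks about 1 group in 20, a rate that the 3 flagged do not exceed.

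The effect of tumour, BCC against Con, differed between models by edgeR's interaction test for the members below, given as differences of log2 fold changes. Between PKI and SmoM2, 10 members had a higher effect in PKI: Sema7a (3.94), Ntn1 (1.9), Plxnd1 (1.66), Ephb1 (1.58), Sema4d (1.46), Sema3f (1.22), Sema4c (1.02), Epha1 (0.66), Epha2 (0.56) and Plxnb2 (0.47). A lower effect in PKI was found for 13: Plxna4 (−3.79), Slit3 (−3.35), Sema3e (−2.76), Robo2 (−1.82), Slit1 (−1.78), Efnb3 (−1.56), Sema5a (−1.45), Sema6c (−1.37), Efna4 (−0.81), Efnb2 (−0.74), Ephb4 (−0.68), Efna1 (−0.57) and Efna3 (−0.56). Sema3e and Sema4d were called in opposite directions in these models. Between PKI and Gnas-eKO, 4 members had a higher effect in PKI, Sema7a (1.96), Robo1 (1.48), Sema4d (1.32) and Sema4c (0.68), and 6 a lower one, Sema3e (−2.54), Efnb2 (−0.91), Efna1 (−0.9), Sema4g (−0.88), Efna4 (−0.87) and Efna3 (−0.75). Model, time after induction and batch cannot be told apart in these differences.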

How the results depend on the processing

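Members called as reported gave 1539 values under the alternatives, and members not called are not among them. Of these values, 1412 kept direction and side of the threshold, 127 kept direction and lost the call, and 0 changed sign. With 1 library left out, 3 values kept the call and 11 lost it in Gnas-eKO, and 103 and 37 did so for PKI minus Gnas-eKO. In Gnas-eKO the count of members called higher, 2 as reported, was 1 with no filter, 13 with DESeq2, 0 with the replicate block, 18 in the joint fit and 0 with sex as a covariate, where 1.14%, 4.82%, 0.78%, 8.89% and 0.609% of all genes were called higher (1.46% as reported). The count called lower, 0 as reported, was 2 with DESeq2 and 8 in the joint fit, beside 1.72% and 6.05% of all genes (0.165% as reported). For PKI minus Gnas-eKO effects the count of lower members, 6 as reported, was 10 with DESeq2 and 11 in the joint fit (5.11% and 6.74% of all genes, 4.57% as reported). For Gnas-eKO minus SmoM2 it went from 0 to 1 with DESeq2 (0.452% of all genes, 0.0991% as reported). Leaving out 1 library gave 0 to 12 higher and 0 to 4 lower members in Gnas-eKO, the highest counts without BCC replicate 2 (7.36% and 4.43% of all genes) and each 0 among the higher counts beside 0% to 0.342% of all genes, 2 to 6 higher and 4 to 13 lower for PKI minus Gnas-eKO (all genes 1.94% to 7.37% and 1.85% to 7.29%, the 13 without Gnas-eKO BCC replicate 3), 0 and 0 for Gnas-eKO minus SmoM2 (0.0341% to 0.211% and 0.0454% to 0.252%), 18 to 21 and 10 to 13 in SmoM2 (12.2% to 14.9% and 9.24% to 12.8%), 11 to 15 and 12 to 14 in PKI (13.2% to 18.4% and 10.9% to 15.3%), and 8 to 12 and 13 to 14 for PKI minus SmoM2 (9.46% to 12.8% and 9.56% to 13%). The cause of these shifts was not tested.

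The replicate block, on numbers that share only a label, called 18 members higher in SmoM2 in place of 19 and 10 lower in place of 12 (all genes 12.1% in place of 16.2% and 8.82% in place of 13.5%), 17 higher in PKI in place of 14 and 15 lower in place of 14 (19% in place of 18.7% and 17.5% in place of 15.8%), and 9 higher and 11 lower for PKI minus SmoM2 in place of 10 and 13 (11.3% and 11.6% in place of 12.6% and 12.3%), and 3 and 4 for PKI minus Gnas-eKO in place of 4 and 6 (2.7% and 2.67% in place of 4.49% and 4.57%). Genes near 3 counts per library, such as Sema3g and Epha7, are limited by depth.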

Other observations

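Markers of other cell types in skin also varied beside the members. The summed level of 10 Schwann cell and nerve markers was 243 to 251 CPM in SmoM2 Con and 212 to 230 CPM in BCC, 215 to 230 and 214 to 264 CPM in Gnas-eKO, and 210 to 235 and 241 to 258 CPM in PKI. By edgeR 2 were called higher and 2 lower of 7 tested in SmoM2, 1 and 0 of 7 in Gnas-eKO, and 1 and 1 of 6 in PKI, with median log2 fold changes of −0.09, 0.34 and −0.42. In PKI the median and the sum thus differ in direction, and most of the sum was Erbb3 (136 to 156 CPM in Con and 183 to 205 CPM in BCC), which keratinocytes also express. For 6 melanocyte markers the sums were 131 to 220 CPM in Con and 126 to 181 CPM in BCC of SmoM2, 123 to 190 and 138 to 220 CPM in Gnas-eKO, and 164 to 214 and 81.7 to 129 CPM in PKI, and edgeR called 2, 0 and 5 of the 6 lower and 0 higher in SmoM2, Gnas-eKO and PKI. Their part in the levels of guidance genes was not tested.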
